A study of Mus musculus with 12 samples.

Results

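The cytosolic ribosomal protein genes are the genes whose products assemble with ribosomal RNA into the large and small ribosomal subunits. Members were taken as every row of the deposited count table that pairs with a mouse protein-coding symbol of the form Rpl or Rps followed by a number, with or without a closing a, x, l or y, together with Rpsa, Rplp0, Rplp1 and Rplp2. This rule, which reads names and no measured value, found 81 genes among 57186 rows. Of these, 80 passed the filter on low counts and were tested with 19255 genes in all. The remaining one, Rpl10l, a copy of Rpl10 known from testis, held 0 counts in every tumour.

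Messenger RNA was sequenced from 12 tumours of 4T1 cells, which derive from a mouse mammary carcinoma and serve to study triple-negative disease. In the WT group (6 tumours) the cells were parental, and in the Tn group (6 tumours) Cosmc, the gene C1galt1c1, had been silenced with CRISPR/Cas9. The Cosmc protein is a chaperone for the enzyme that elongates O-linked glycans, and cells without it carry the short Tn antigen. The labels name the replicates as biological, but the size and age of each tumour, the age of the mice, and whether the silenced cells are a clone are not in the labels used here.

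A ribosome contains a single copy of most of these proteins, and the cell makes them together with ribosomal RNA in the nucleolus before the subunits are exported. Most mouse ribosomal protein mRNAs begin with a C followed by a run of pyrimidines, the 5′ terminal oligopyrimidine (TOP) motif, through which mTORC1 and the binding protein Larp1 set how much of the mRNA is translated. A few genes have divergent copies, such as Rps27l beside Rps27, that arose by duplication and are often expressed in particular tissues or under stress.

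The start of each transcript is shown for 6 genes that were higher in Tn tumours, the 4 with the largest rises among them, and for the copies Rps27l and Rpl39l, which were lower, because the TOP motif lies there. Sequences come from RefSeq (build GRCm38.p6), run 5′ to 3′ on the gene's strand from 30 bases before the annotated start to 10 bases from the start onward, and carry in capitals each run of a C followed by at least 5 further C or T. Rpl37a has no such run here, and in Rpl11, Rps27l and Rpl39l every run shown ends before the annotated start. Rps27l has another annotated start, which is not shown.
Rpl38 (chr11:114668550-114668589, plus strand): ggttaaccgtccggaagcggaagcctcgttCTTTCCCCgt
Rps18 (chr17:33955656-33955695, minus strand): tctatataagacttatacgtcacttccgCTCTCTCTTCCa
Rplp2 (chr7:141447621-141447660, plus strand): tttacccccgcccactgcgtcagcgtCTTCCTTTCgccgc
Rps27 (chr3:90213639-90213678, minus strand): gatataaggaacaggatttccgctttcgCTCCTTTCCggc
Rpl11 (chr4:136053384-136053423, minus strand): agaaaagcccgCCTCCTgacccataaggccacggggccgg
Rpl37a (chr1:72711230-72711269, plus strand): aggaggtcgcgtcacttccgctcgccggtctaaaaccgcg
Rps27l (chr9:66946056-66946095, plus strand): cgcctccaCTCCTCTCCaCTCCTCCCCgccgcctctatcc
Rpl39l (chr16:10170198-10170237, plus strand): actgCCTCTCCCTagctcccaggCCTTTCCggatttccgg

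The promoter table held 60 of the 81 members and 27025 genes in all. A C at the annotated start followed by at least 4 C or T was present in 13 of the 60 members (21.7%) and in 3.01% of all genes in the table. Of the 21 matched members that rose in Tn tumours 8 had it, of the 36 that were not called 5 had it, and of the 2 that fell none had it. A run of C followed by at least 5 C or T within 20 bases of the start was found in 66.7% of the members and 32.8% of all genes. The letters CCGGAAG on either strand of the 300 bases around the start, which resemble the site of ETS factors, were present in 41.7% of members and 9.93% of all genes. TATAAA was present in the 50 bases before the start in 0 of 60 members and in 3.15% of all genes. These are descriptions of letters in the annotated windows, and the annotated start of a gene need not be the start used in these tumours.

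Totals ran from 113575859 to 156880766 counts per tumour. C1galt1c1 was lower in every Tn tumour (10.8 to 12.9 CPM, the counts scaled to library size) than in any WT tumour (15.5 to 23 CPM), by a log2 fold change of -0.80 ± 0.11 (SE; edgeR quasi-likelihood test, adjusted p = 0.000201). Total tumour tissue was sequenced, so fewer cells of a type and less RNA per cell cannot be told apart. Markers of the 4T1 carcinoma were present throughout, at 2202 to 4821 CPM summed over 6 genes in WT and 2086 to 3678 in Tn tumours, and 1 of the 6 fell. All 8 T cell markers rose (summed level 7.89 to 21.3 CPM in WT and 42.6 to 430.3 in Tn), 5 of 7 macrophage markers rose (761 to 1179 and 1166 to 3526), and 5 of 6 fibroblast markers fell while 1 rose (5261 to 13554 and 2219 to 3380). Of 5 endothelial markers 4 fell (251 to 441 CPM and 169.6 to 331). In all, 3 libraries stood apart in marker levels of B cells, keratinocytes or adipocytes. B cell markers reached 695 CPM in Tn tumour 4 and at most 2.66 elsewhere, keratinocyte markers reached 3003 CPM in Tn tumour 6, and adipocyte markers reached 1179 CPM in WT tumour 6. Skeletal muscle markers ran from 4.14 to 68.5 CPM in WT and from 4.36 to 144.9 in Tn tumours. They were highest in Tn tumour 5, which is not among the 3 libraries. The part of these cells in the results below was not tested, and the counts of calls for the members, their subunits, their chromosomes and the related lists are given with and without those 3 libraries.

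Ribosomal protein mRNAs were modestly higher in Tn tumours, with a median log2 fold change of 0.18 over the 80 tested members (1.13-fold) against 0.015 over all tested genes. Of the 80, 32 rose (40%), 3 fell (3.75%) and 45 were not called at an adjusted p of 0.05. Among all tested genes 19.5% rose and 17.4% fell. The rises were small, from 0.21 to 0.53 on the log2 scale with a median of 0.34. In 16 members (20%) every Tn tumour lay above every WT tumour, against 8.81% of all genes, and in 0 members did every Tn tumour lie below, against 8.35%. Without the 3 libraries that stood apart, 23 members rose and 1 fell, where 16.9% and 14.2% of all genes did.

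**Figure D1:**
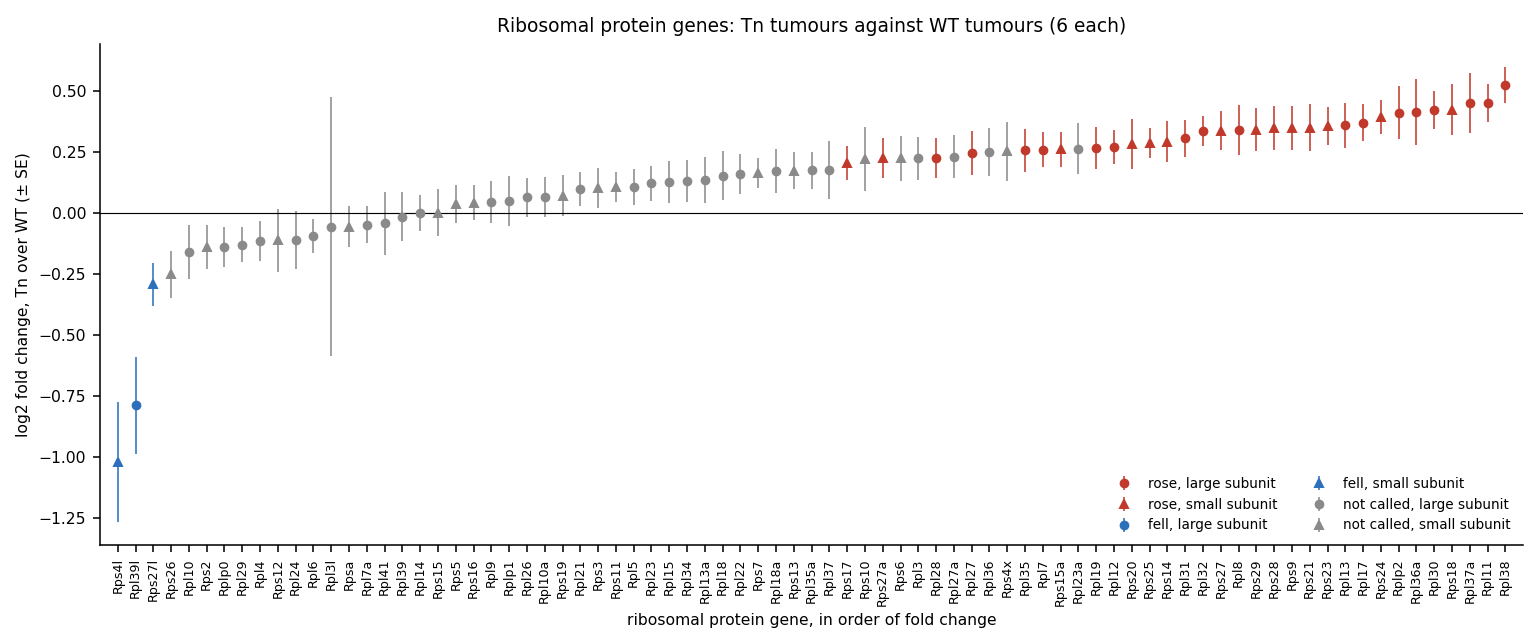
Log2 fold change (Tn over WT, ± SE) of the named ribosomal protein genes in order of size, with circles for the large subunit and triangles for the small subunit and colour for the call. The values run from -1.02 for Rps4l to 0.53 for Rpl38, and the 3 members that fell are copies of other members.

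The share of rises has to be read beside genes of like level and length, a comparison chosen after the values were seen. Members are abundant, 70 of 81 at 100 CPM or more, and short, with a coding length of 138 to 1257 bases and a median of 462. Among 4649 other genes of at least 50 CPM, 24.6% rose and 19.8% fell. Among 661 other protein-coding genes with a canonical transcript of at most 1000 bases at any level, 34.6% rose and 5.9% fell. Among the 517 abundant ones with at most 600 coding bases, 40.8% rose and 10.1% fell, with a median of 0.18. Among those of at least 50 CPM with a canonical transcript of at most 1000 bases (127 genes), 54.3% rose and 4.72% fell, with a median of 0.28, whereas over 3000 bases (3028 genes) 18.1% rose and 24.8% fell, with a median of -0.04. The members' 40%, at any level and length, was close to the 40.8% of other abundant genes of short coding sequence. It was below the 54.3% of those with short transcripts, so a high share of rises is not particular to the members. The members' 3.75% of falls lay below the 10.1% and close to the 4.72% of these genes. Of the 3 members that fell, Rps4l (mean 4.05 CPM) and Rpl39l (1.72 CPM) lay under the 50 CPM required of these genes. Without the divergent copies, which hold all 3 falls, 43.2% of 74 members of at least 50 CPM rose. Within the members, 14 of 37 with a canonical transcript of at most 1000 bases rose and 2 fell, and 18 of 43 longer ones rose and 1 fell. When a smooth trend of the counts on canonical transcript length was removed, 26 members rose and 6 fell (Rpl39l, Rplp0, Rps2, Rps26, Rps27l and Rps4l), with a median of 0.13, where 20.1% and 15.9% of all genes did. For some members the canonical transcript is longer than the exons counted, as for Rpl37a (3762 against 1410 bases). The correction, and the split at 1000 bases, may not suit the mRNA of such members.

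In 3 other families of housekeeping genes, whose median coding lengths were 582, 417 and 829.5 bases, more members rose than fell. Of 78 mitochondrial ribosomal proteins 22 rose and 3 fell (median 0.17), of 80 nuclear subunits of the respiratory chain 27 rose and 2 fell (0.20), and of 38 proteasome subunits 20 rose and 0 fell (0.21), beside 19.5% and 17.4% of all tested genes. Without the 3 libraries that stood apart, 25 rose and 1 fell, 29 rose and 1 fell, and 19 rose and 0 fell. No test of a difference between these families was made.

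**Figure D2:**
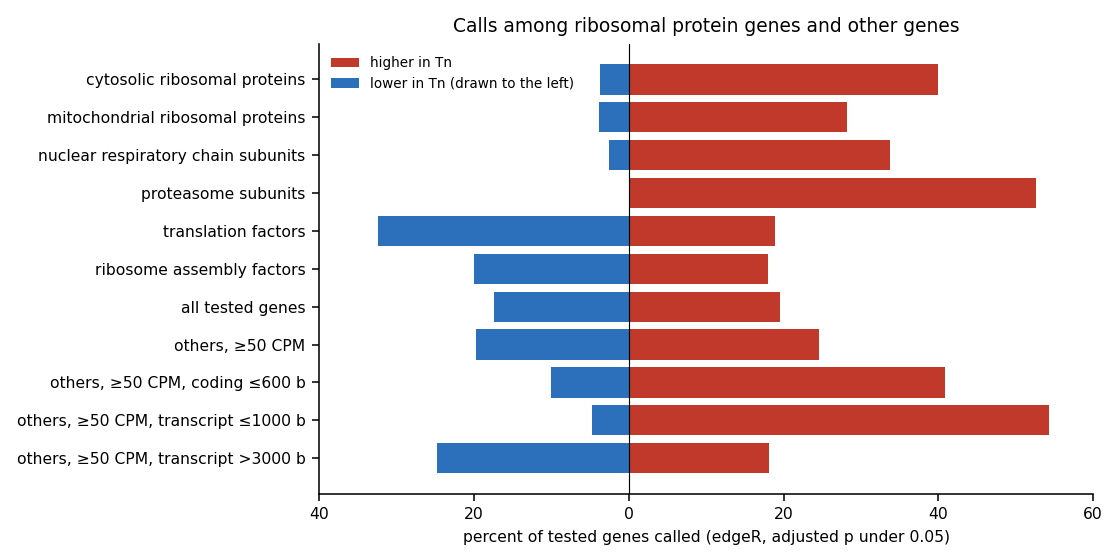
Percent of tested genes called higher (right) or lower (left) in Tn tumours in named families, in all tested genes and in other genes grouped by level and length. Of the cytosolic ribosomal proteins, at any level, 40% were higher and 3.75% lower. Other genes of at least 50 CPM had 40.8% and 10.1% with at most 600 coding bases and 54.3% and 4.72% with a transcript of at most 1000 bases.

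Rises were spread over the large and the small subunit, and the difference between them was not tested. Of 48 tested large-subunit genes 17 rose and 1 fell, with a median of 0.17, and of 32 small-subunit genes 15 rose and 2 fell, with a median of 0.22, beside 19.5% and 17.4% of all tested genes. Without the 3 libraries 12 large-subunit genes rose and 0 fell, and 11 small-subunit genes rose and 1 fell. No member of either subunit had all 6 Tn tumours below all 6 WT tumours.

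Rpl38 (ENSMUSG00000057322, GRCm39 chromosome 11, 114559350 to 114563166), a large-subunit protein known for its part in translating Hox mRNAs in the embryo, rose most. Its level ran from 124 to 160.3 CPM in WT tumours, with a median of 143, and from 181 to 232 CPM in Tn tumours, with a median of 207. The groups did not overlap, and the log2 fold change was 0.53 ± 0.074 (SE; edgeR, adjusted p = 0.000288). Rpl11 (ENSMUSG00000059291, chromosome 4, 135753967 to 135780818), which joins Rpl5 and 5S ribosomal RNA and can bind the p53 regulator Mdm2 when ribosome assembly fails, ran from 303 to 381 CPM in WT tumours (median 358) and from 425 to 528 in Tn tumours (median 477). It too separated the groups, with a log2 fold change of 0.45 ± 0.077 (adjusted p = 0.000878). Its partner Rpl5 was not called, at 541 to 662 CPM in WT and 574 to 745 in Tn tumours (0.11 ± 0.075, adjusted p = 0.272).

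Rpl37a, a protein of the large subunit, and Rps18, a protein of the small subunit head, complete the 4 largest rises. Rpl37a held 205 to 317 CPM in WT and 343 to 454 CPM in Tn tumours, a log2 difference of 0.45 ± 0.12 (edgeR, adjusted p = 0.0133). Rps18 held 266 to 355 CPM in WT and 356 to 528 CPM in Tn tumours (0.42 ± 0.10, adjusted p = 0.00718). In each, the lowest Tn tumour lay above the highest WT tumour.

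Besides these, the genes in which all Tn tumours lay above all WT tumours included Rpl13, Rpl17, Rpl30, Rpl31, Rpl32, Rps23, Rps24, Rps25, Rps27, Rps28 and Rps29. Rpl32, for example, ran from 493 to 591 CPM in WT and 633 to 752 CPM in Tn tumours (0.34 ± 0.063, edgeR, adjusted p = 0.00154). Rps24 ran from 767 to 879 CPM in WT and 996 to 1280.2 CPM in Tn tumours (0.40 ± 0.069, adjusted p = 0.00109).

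**Figure D3:**
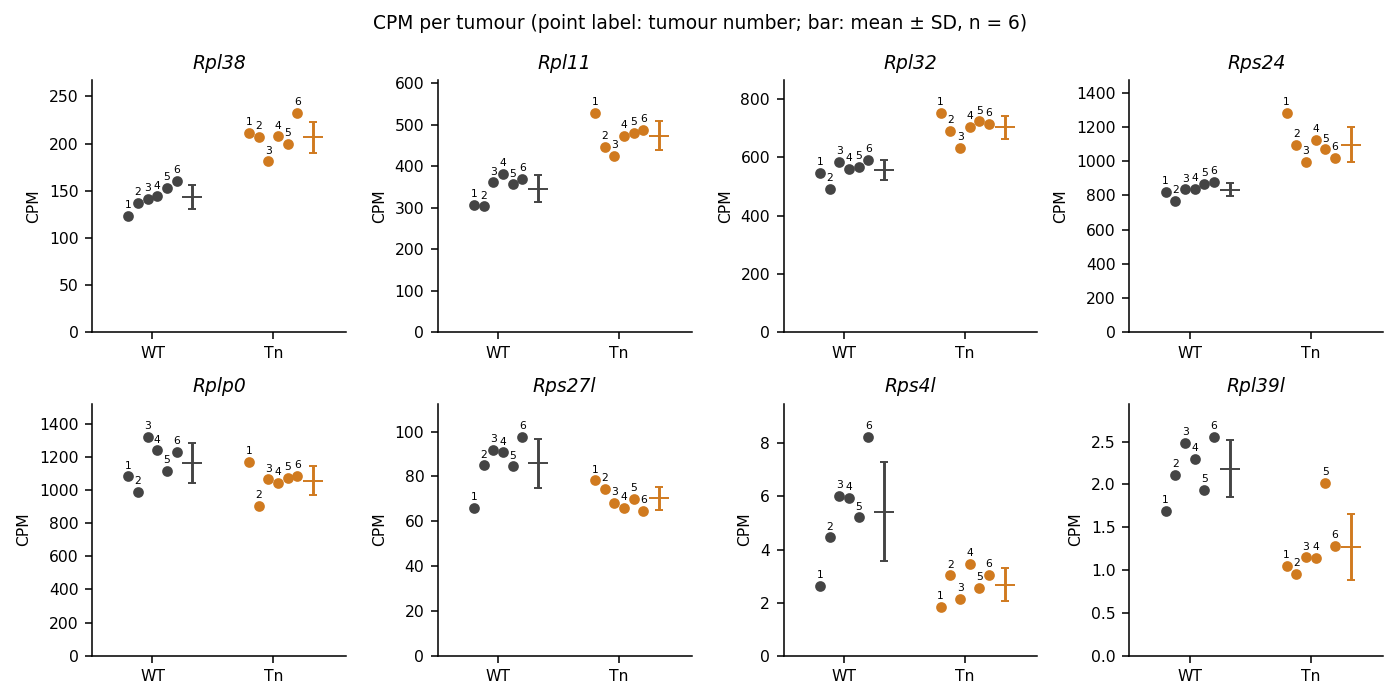
CPM per tumour for 8 members (points, numbered by tumour, with mean ± SD, n = 6 per group; each axis starts at 0). Rpl38, Rpl11, Rpl32 and Rps24 have all Tn tumours above all WT tumours, whereas the WT and Tn ranges of Rplp0, Rps27l, Rps4l and Rpl39l overlap.

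The stalk proteins Rplp0, Rplp1 and Rplp2, which recruit translation factors to the large subunit, gave 1 call. Rplp2 rose, from 389 to 577 CPM in WT to 551 to 791 CPM in Tn tumours (0.41 ± 0.11, edgeR, adjusted p = 0.0104). Rplp1 (0.05, adjusted p = 0.729) and Rplp0 (-0.14, adjusted p = 0.212) were not called. Rplp0 ran from 989 to 1326 CPM in WT and 907 to 1172 CPM in Tn tumours, and with the length trend removed it fell by 0.22 (adjusted p = 0.0384). Whether the 3 stalk genes differ from each other was not tested.

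Among Rps6, Rps19, Rpsa and Rps27a, which have further roles, only Rps27a was called. Rps6, the substrate of S6 kinase downstream of mTORC1, ran from 242 to 314 CPM in WT and 275 to 388 CPM in Tn tumours (0.23, adjusted p = 0.072). Rps19, the gene most often mutated in Diamond-Blackfan anaemia, was not called (0.07, adjusted p = 0.526). Rpsa, also known as the laminin receptor, was not called either (-0.05, adjusted p = 0.645). Rps27a, which is made as a fusion with ubiquitin, rose by 0.23 (adjusted p = 0.0465), but the call is not stable, as the closing paragraphs give. The lowest members that were not called were Rps26 (666 to 889 CPM in WT, 607 to 776 in Tn; -0.25, adjusted p = 0.0608), Rpl10 (-0.16, adjusted p = 0.285) and Rps2 (-0.14, adjusted p = 0.242).

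Levels differ between members when compared per kilobase of exons. The highest were Rplp1 at 2660 CPM per kilobase, Rps15 at 1642 and Rpl41, whose protein is the smallest of the ribosome, at 1181. None of these 3 was called, with log2 fold changes of 0.05, 0.003 and -0.04. The length used is that of all exons counted for a gene, from 383 bases for Rpl36 to 6270 for Rps15a. It need not be the length of the mRNA, so this order depends on the annotation. Without the division by length, Rpsa (mean 2241 CPM) and Rpl4 (1959 CPM) were the highest.

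All 3 members that fell were copies of other members, but the calls of Rps27l and Rpl39l are less stable than that of Rps4l. Without the 3 libraries that stood apart, Rps27l (-0.18, adjusted p = 0.188) and Rpl39l (-0.69, adjusted p = 0.0573) were not called, nor was Rps27l without Tn tumour 4 (adjusted p = 0.0502) or with the replicate number as a block (adjusted p = 0.0829). Rps4l (ENSMUSG00000063171, chromosome 6, 148256098 to 148257431), a copy of X-linked Rps4x, ran from 2.62 to 8.26 CPM in WT tumours and from 1.84 to 3.46 CPM in Tn tumours. The log2 fold change was -1.02 ± 0.25 (edgeR, adjusted p = 0.00687), and the groups overlapped. Rpl39l (ENSMUSG00000039209, chromosome 16, 9949671 to 9992780), best known from male germ cells, ran from 1.69 to 2.56 CPM in WT and 0.952 to 2.02 CPM in Tn tumours (-0.79 ± 0.20, adjusted p = 0.00855). Rps27l (ENSMUSG00000036781, chromosome 9, 66853340 to 66856808), a p53 target that binds Mdm2, ran from 65.9 to 97.8 CPM in WT and 64.5 to 78.3 CPM in Tn tumours (-0.29 ± 0.088, adjusted p = 0.0212). Rpl3l, the muscle copy of Rpl3, was close to undetected at 0.022 to 0.367 CPM in WT and 0.081 to 0.224 in Tn tumours and was not called (-0.06, adjusted p = 0.944). Without these copies, 32 of 76 members rose and 0 fell. This split holds only within the naming rule. Outside it, Rps3a1 fell from a mean of 722 CPM in WT to 587 CPM in Tn tumours (-0.30, edgeR, adjusted p = 0.00529). The copies Rpl7l1 (0.14), Rpl36al (0.14), Rpl22l1 (0.11) and Rps27rt (0.11), also outside it, were not called.

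None of the parent genes fell. Rps27 rose by 0.34 (adjusted p = 0.00608), while Rps4x (0.25, adjusted p = 0.121), Rpl39 (-0.01, adjusted p = 0.929), Rpl3 (0.23, adjusted p = 0.0615) and Rpl10 were not called. Rps27l held 13% to 19.8% of the Rps27 level in WT tumours and 8.62% to 12.8% in Tn tumours, with every Tn tumour below every WT tumour. The difference in log2 ratio was -0.62 (exact two-sided permutation test over 924 assignments, n = 6 per group, p = 0.00216, the smallest it can give, and 0.00433 adjusted over the 3 pairs). For Rps4l over Rps4x it was -1.22, and for Rpl39l over Rpl39 it was -0.81 (exact two-sided permutation test, p = 0.00433 each, 0.00433 adjusted). Rps4l stood at 0.309% to 1.03% of the Rps4x level in WT and 0.133% to 0.320% in Tn tumours. These 3 pairs were chosen after the calls were known, so the p-values describe the ratios and are no independent support. Because reads from near-identical copies can be lost or split when they map to several places, the levels of the copies are uncertain.

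Counting limits touch some other members. In all, 37 members share exonic bases with another annotated row, and 62 have at least 1 annotated pseudogene named after them, as many as 24 for Rpl31 and Rps12. Rows of ribosomal protein pseudogenes (323) held 0.122% to 0.145% of all counts. Rps10 (3.97 CPM) and Rpl24 (4.86 CPM) shared 63.6% and 71.5% of the canonical transcript with other rows, which held 0.03 CPM or less on average, so these low levels may miss reads. Rpl35 (68.1% shared), Rps25 (43.4%) and Rpl30 (42.4%) rose and share bases in the same way.

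The same tumours were lowest of their group in most members, and in the Tn group the same tumours were also highest. Ribosomal protein rows took 3.93% to 4.56% of counts in WT tumours (mean 4.26%) and 4.17% to 4.80% in Tn tumours (mean 4.58%), and the ranges overlapped. The lowest level among WT tumours was in WT tumour 1 or WT tumour 2 for 75 of 80 members, and the lowest among Tn tumours was in Tn tumour 2 or Tn tumour 3 for 66. The highest among Tn tumours was in Tn tumour 1 or Tn tumour 6 for 64. The highest among WT tumours was spread over WT tumour 3 (26 members), WT tumour 4 (25) and WT tumour 6 (25). Median deviations from the gene means ran from -0.24 in WT tumour 2 to 0.20 in Tn tumour 6 on the log2 scale.

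**Figure D4:**
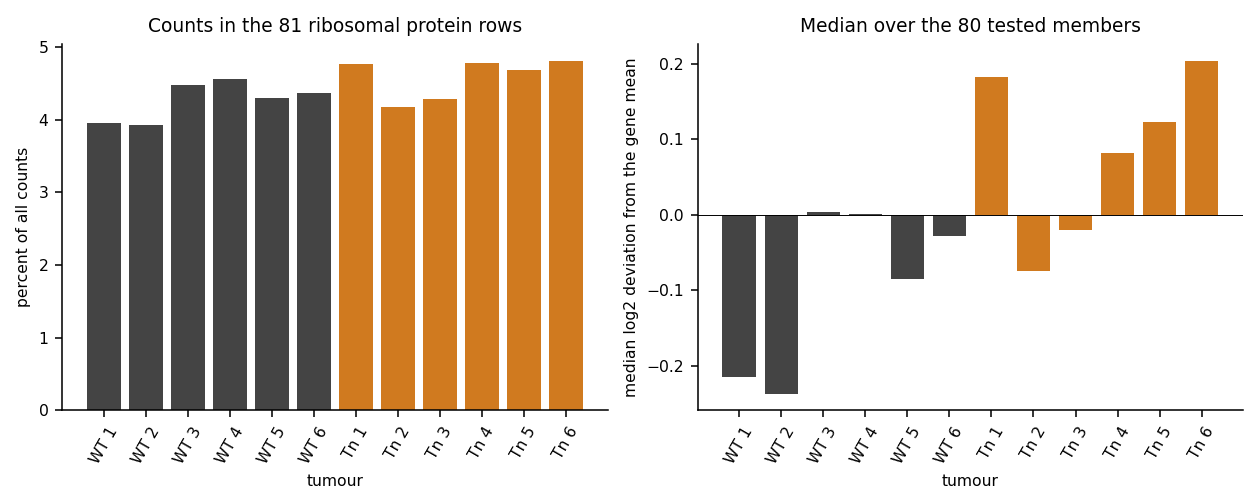
Percent of all counts in the 81 ribosomal protein rows per tumour (left, bars from 0) and the median log2 deviation from each gene's mean over the 80 tested members (right). WT tumours 1 and 2 are the lowest of the 12 tumours in each panel, and Tn tumours 2 and 3 lie within the WT range.

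The members were also set beside the other genes of their chromosomes. The 4 members on chromosome 10 (Rps26, Rps12, Rpl41 and Rps15) had log2 fold changes of 0.003 or below and none was called. The 915 other tested genes there had a median of -0.21, and 7.54% of them rose and 33.8% fell. None of the 5 members on chromosome 5 was called, where the others had a median of -0.11 and 11.6% rose and 21.8% fell. All 3 members on chromosome 1 and 3 of 5 on chromosome 4 rose, where the others' medians were 0.08 and 0.12. Of the others on chromosome 1, 27.7% rose and 13.2% fell, and on chromosome 4, 28.3% rose and 11.4% fell. Without the 3 libraries the members that rose were 0 of 4 on chromosome 10, 0 of 5 on chromosome 5, 3 of 3 on chromosome 1 and 2 of 5 on chromosome 4. None on these chromosomes fell, where 16.9% of all tested genes rose and 14.2% fell. Over the 12 chromosomes with at least 3 tested members, the median of the members and that of the other genes had a Pearson r of 0.75 and a Spearman rho of 0.76. Members and other genes of a chromosome share the same 12 libraries, so this is a description. Chromosomes with 1 or 2 tested members were left out of it. There the medians of members and others had opposite signs on chromosomes 6 (-0.34 and 0.14), 3 (0.24 and -0.04), 12 (0.25 and -0.08) and 18 (0.33 and -0.05). They had the same sign on chromosomes 14 (0.26 and 0.05), 8 (0.27 and 0.11) and 13 (0.36 and 0.07). The members' median lay above that of the other genes on 17 of 19 chromosomes.

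**Figure D5:**
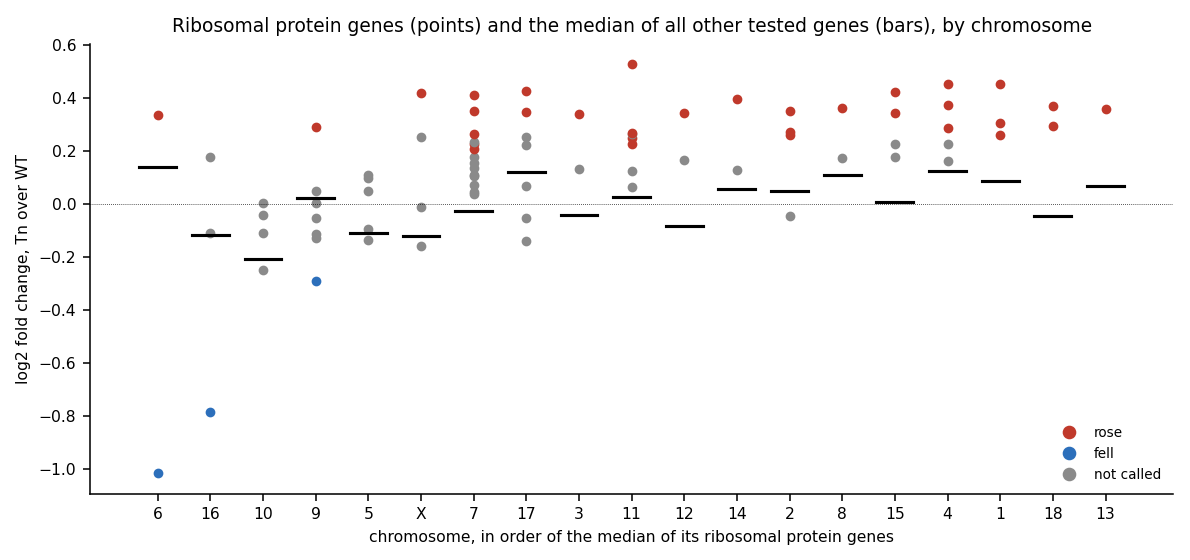
Log2 fold change (Tn over WT) of each tested ribosomal protein gene (points, coloured by call) and the median of all other tested genes (bars), by chromosome in order of the members' median. All members on chromosomes 10 and 5 are uncalled. All on chromosomes 1 (3 members), 18 (2) and 13 (1) rose, where 27.7%, 13.4% and 21.1% of the other tested genes did.

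Lists of genes that make or regulate ribosomes were mostly called at shares near the 19.5% higher and 17.4% lower of all tested genes. Of 8 ribosomal proteins outside the naming rule, Fau rose (0.51, adjusted p = 0.000915), Rps3a1 fell (-0.30, adjusted p = 0.00529) and 6 were not called. Of 50 ribosome assembly factors 9 rose and 10 fell (18% and 20%), with a median of -0.03, and 8 rose and 10 fell without the 3 libraries. Mybbp1a, a nucleolar protein, fell from 280.1 to 348 CPM in WT to 189 to 249.9 CPM in Tn tumours (-0.61, adjusted p = 0.000162), Pwp1 (-0.47) and Nolc1 (-0.48) fell too, and Emg1, a methyltransferase of 18S ribosomal RNA, rose (0.38). Of 15 genes of RNA polymerase I, which transcribes ribosomal RNA, 3 rose and 2 fell (20% and 13.3%), and 3 rose and 1 fell without the 3 libraries. Rrn3, its initiation factor, fell (-0.27, adjusted p = 0.00119), and Taf1a (0.79), Polr1h (0.35) and Polr1a (0.30) rose.

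Of 37 translation factors 7 rose and 12 fell (18.9% and 32.4%), with a median of -0.04, and 6 rose and 6 fell without the 3 libraries. The factors Eif5 (-0.55), Gspt1 (-0.40) and Eif3a (-0.38) fell, and Eef1g, a subunit of the elongation factor complex, rose (0.52, adjusted p = 0.00146). Of 18 other TOP mRNAs 4 rose and 4 fell (22.2% each; 4 and 2 without the 3 libraries), Tpt1 (0.53) and Gas5 (0.96) among the rises and Nap1l1 (-0.39) among the falls. Of 20 regulators of mTORC1 and TOP mRNAs 5 rose and 5 fell (25% each), and 2 rose and 4 fell without the 3 libraries. Larp1, which binds the TOP motif, fell by 0.31 (adjusted p = 0.00382), Eif4ebp2 by 0.43 and Larp4 by 0.26, while Sesn1, which restrains mTORC1, rose by 0.69. Of 12 genes of the Myc network 3 rose and 3 fell (25% each; 2 and 3 without the 3 libraries), Max (0.40) and Mxd1 (0.52) among the rises and Mga (-0.71) and Mxi1 (-0.40) among the falls.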

How the data were processed

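Per the labels, stranded poly(A) libraries were made from RNA of tumour tissue. Trimming used fastp 0.23, alignment to GRCm39 used STAR 2.7.11a, and counting used featureCounts (Subread 2.1.1), per the submitters' processing notes. The deposited values are raw counts over exons of Ensembl 112 genes, made by the authors without a strand setting, with the gene length in bases, per the file headers. Symbols and transcript lengths come from a later GENCODE annotation of GRCm39, which paired 56630 of 57186 rows.

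The counts of all 12 tumours were tested with edgeR 4.0.16 in R 4.3.3 (TMM, filterByExpr, robust quasi-likelihood), with the Benjamini-Hochberg adjustment made across 19255 genes and a threshold of 0.05. CPM are TMM-scaled. Fold changes compare Tn with WT on the log2 scale, and their SE was derived from the F statistic. The biological coefficient of variation was 0.358. On simulated counts of this comparison (19004 genes) the test recovered 0% of genes changed 1.2-fold, 44% of those changed 1.5-fold, 60% of those changed 2-fold and 98% of those changed 4-fold, and made 3 false calls. The changed genes were not matched to the members in level. The median SE was 0.086 for the members and 0.166 for all tested genes, so these rates do not describe the members.

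The text names C1galt1c1, the 4 largest rises and all falls, the 3 highest members per length, the stalk and 5S genes, the copies with their parents, members with further roles, and up to 4 genes of smallest p from each related list. The result of 1 member is counted but not reported by name here. Others were named after their values were seen. Alternatives were RLE and upper-quartile scaling, library sizes without ribosomal protein rows or without ribosomal RNA and mitochondrial rows, DESeq2 1.42.0, voom of limma 3.58.1 with weights, other filters on low counts, the replicate number as a block, the muscle level as covariate, and tumours left out. The transcript length offset (lowess span 0.3) was added after seeing the data. Members and lists were chosen with earlier results of these data known. The labels name 1 batch. Library names carry lower numbers in the Tn group, so an effect of their order cannot be told apart from the group.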

Additional observations from a re-analysis of the deposited data

Results flagged for a closer look

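In groups of 6 tumours, 48 groups of values were checked for a tumour far from the others, and chance alone flags about 1 in 20. Rpl39l in Tn tumour 5 was high at 2.02 CPM, where the nearest Tn tumour held 1.28. Rps19 in WT tumour 1 was low at 353 CPM, where the nearest WT tumour held 408.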

How the results depend on the processing

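Over 24 alternative settings the number of members that rose ran from 23 to 35 (32 in the analysis reported), the number that fell from 1 to 6 (3), and the median log2 fold change from 0.12 to 0.23 (0.18). In no setting was the direction of a called value reversed. In every setting 23 members rose, among them Rpl38, Rpl11, Rplp2, Rps18, Rps24 and Rps27, and of the falls Rps4l alone held in every one. The count of falls was 1 without WT tumour 6, Tn tumour 4 and Tn tumour 6, and 6 with the transcript length offset. With upper-quartile scaling 25 rose and 4 fell, where 16.1% and 20% of all genes did. With each tumour left out in turn, 24 to 35 rose, 2 to 4 fell and the median ran from 0.17 to 0.23. Rps27l lost its call without those 3 libraries (-0.18, adjusted p = 0.188) and without Tn tumour 4 (adjusted p = 0.0502), and Rpl39l lost it without the 3 libraries (-0.69, adjusted p = 0.0573). Rps27a lost its call in 16 settings, for example with each of the 6 WT tumours left out. The cause of these changes was not tested. The difference in the share of counts between groups was 0.319 percentage points, 0.236 without the 3 libraries. With the replicate number as a block 26 members rose and 2 fell, where 15.6% and 14.9% of all genes did, and Rps27l was not called (-0.28, adjusted p = 0.0829). Same-numbered tumours correlated from -0.12 to 0.16 in their deviations from group means and none correlated best with its own number, so the numbers do not pair the tumours.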

Other observations

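Host genes of small nucleolar RNAs, the guides for ribosomal RNA modification, were tested in the same fit. Of 14 tested 3 rose and 1 fell (21.4% and 7.14%), also without the 3 libraries that stood apart, beside 19.5% and 17.4% of all tested genes, and the median was 0.35 (0.23 without them). Gas5 rose from 101 to 158 CPM in WT to 177 to 394 CPM in Tn tumours (0.96, edgeR, adjusted p = 0.0027), Snhg6 rose by 0.86 (adjusted p = 0.00889) and Snhg12 by 0.69 (adjusted p = 0.0145), while Snhg4 fell by 0.51 (adjusted p = 0.0294).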
